A study of Mus musculus with 18 samples.

Results

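The transcripts of glycolysis and of the response to low oxygen were followed in microglia, the resident macrophages of the brain, sorted from corpus callosum and cortex of C57Bl/6 mice at 3 ages. The set comprised 37 genes chosen by name, with earlier results of these data known. Counts of them set beside shares of all genes are therefore a description, not an independent test. The set held 3 carriers of glucose and lactate, 15 glycolytic enzymes and 4 regulators of glycolytic flux. With them came 3 genes of oxygen sensing and 12 targets of the hypoxia response. A gene counted as measured where a probe set of the Affymetrix array was annotated to it alone, and its brightest probe set over the 18 arrays stood for it. This held for 34 of the 37 genes, out of 22180 genes measured in that way in all. Gpi1 had no probe set of its own, while Bnip3l and Ankrd37 each had 1 probe set that was shared with another symbol, and these 3 genes were not measured.

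Each of 6 groups held 3 arrays, of callosal or cortical microglia taken on postnatal day 3 (P3), on postnatal day 7 (P7) or from adults, whose age was not given. All mice were untreated and kept under specific-pathogen-free conditions. Cells were passed over a Percoll gradient and sorted as CD45+ CD11b+ Gr1-, a gate that other brain macrophages can also meet, and their RNA was amplified before labelling. Neither the sex of the mice nor the number of animals behind an array was stated, so the p-values measure only the spread between these samples, which may be technical. The label was checked against 12 microglial markers, of which 11 were measured; the log2 level of P2ry12, a purinergic receptor of microglia, ran from 11.48 to 12.26 over the 18 arrays. Because each array held a sorted population, fewer cells with a transcript and less of it per cell cannot be told apart.

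Glycolysis splits glucose into pyruvate, which enters the mitochondria or is reduced to lactate. In the presence of oxygen the prolyl hydroxylases (Egln1 and Egln3) mark the transcription factor subunit HIF-1alpha for degradation; when oxygen falls, or under some immune and growth signals, the factor is stabilised and raises transcription of most glycolytic enzymes, of glucose and lactate carriers and of genes such as Bnip3 and Vegfa. Transcript levels of Hif1a itself do not report the stability of its protein. Myeloid cells are known to lean on glycolysis when they are activated or proliferate.

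HIF binds a short DNA core, ACGTG or GCGTG, and the proximal promoters of the 4 genes with the smallest adjusted p for corpus callosum against cortex at P3 or P7 are shown to let the reader see which of them carry it. Each is the 250 bases before the RefSeq transcription start on build GRCm38.p6, written 5′ to 3′ on the strand of the gene: Tpi1 at chr6:124814159-124814408 on the minus strand, Bnip3 at chr7:138909507-138909756 on the minus strand, Pgk1 at chrX:106186850-106187099 on the plus strand and Pgam1 at chr19:41911621-41911870 on the plus strand. Capitals mark ACGTG and GCGTG on either strand, so that a match on the opposite strand reads CACGT or CACGC.

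Tpi1: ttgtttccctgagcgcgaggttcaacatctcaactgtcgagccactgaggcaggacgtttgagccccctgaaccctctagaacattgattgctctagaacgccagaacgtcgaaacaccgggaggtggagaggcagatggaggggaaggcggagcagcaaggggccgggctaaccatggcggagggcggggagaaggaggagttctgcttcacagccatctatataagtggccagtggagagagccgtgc

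Bnip3: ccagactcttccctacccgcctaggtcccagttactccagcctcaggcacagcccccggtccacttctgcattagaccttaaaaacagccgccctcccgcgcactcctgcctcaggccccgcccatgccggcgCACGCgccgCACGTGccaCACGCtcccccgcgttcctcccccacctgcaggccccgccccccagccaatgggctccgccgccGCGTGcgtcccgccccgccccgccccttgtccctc

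Pgk1: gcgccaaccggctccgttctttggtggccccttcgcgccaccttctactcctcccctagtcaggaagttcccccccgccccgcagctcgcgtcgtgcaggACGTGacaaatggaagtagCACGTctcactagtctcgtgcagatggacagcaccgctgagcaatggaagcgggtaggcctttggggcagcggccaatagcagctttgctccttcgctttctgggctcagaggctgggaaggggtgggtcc

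Pgam1: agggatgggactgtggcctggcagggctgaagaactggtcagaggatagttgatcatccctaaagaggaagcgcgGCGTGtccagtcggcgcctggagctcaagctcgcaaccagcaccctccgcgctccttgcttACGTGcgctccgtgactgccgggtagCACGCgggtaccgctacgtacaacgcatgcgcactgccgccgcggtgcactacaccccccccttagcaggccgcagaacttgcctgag

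Bnip3 held 2 matches to ACGTG and 3 to GCGTG. The 2 matches to ACGTG overlap on opposite strands in 1 palindrome, CACGTG, which begins 108 bases before the start. Pgk1 held 2 matches to ACGTG, which begin 131 and 150 bases before the start, and none to GCGTG. Pgam1 held 1 match to ACGTG and 2 to GCGTG, and Tpi1 held neither core in this window. Among the 48 promoter windows that RefSeq gave for 34 of the 37 genes, 37 windows (77.1%) held at least 1 of the cores, against 38.6% of all 32851 windows of the same length; CACGTG was in 5 of the 48 (10.4%), against 6.0% of all. The windows of these genes were richer in G and C, with a median of 60.4% against 52.4% over all windows, and the part of base composition in the motif counts was not tested. A match is a description of the letters, not a binding site.

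All levels below are the authors' deposited log2 values after robust multi-array averaging, and a difference of 1 on this scale is a doubling. Adjusted p-values come from a single limma fit of all 18 arrays, corrected over all 22180 genes, and a gene is said to have passed the test where its adjusted p was under 0.05; a value after ± is a standard error beside a difference and a standard deviation (SD, n = 3 arrays) beside a level. Array medians lay between 5.58 and 5.74. In the labels the P3 arrays are named with a prefix of their own, while P7 and adult arrays share a prefix. Age and array set therefore cannot be told apart between P3 and P7 or between P3 and the adult. Callosal replicate 3 at P3 held the highest level of all 18 arrays for 16 of the 34 genes and callosal replicate 1 at P7 for 6, and a call named below that ended without either of them is given with its value without that array.

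**Figure D1:**
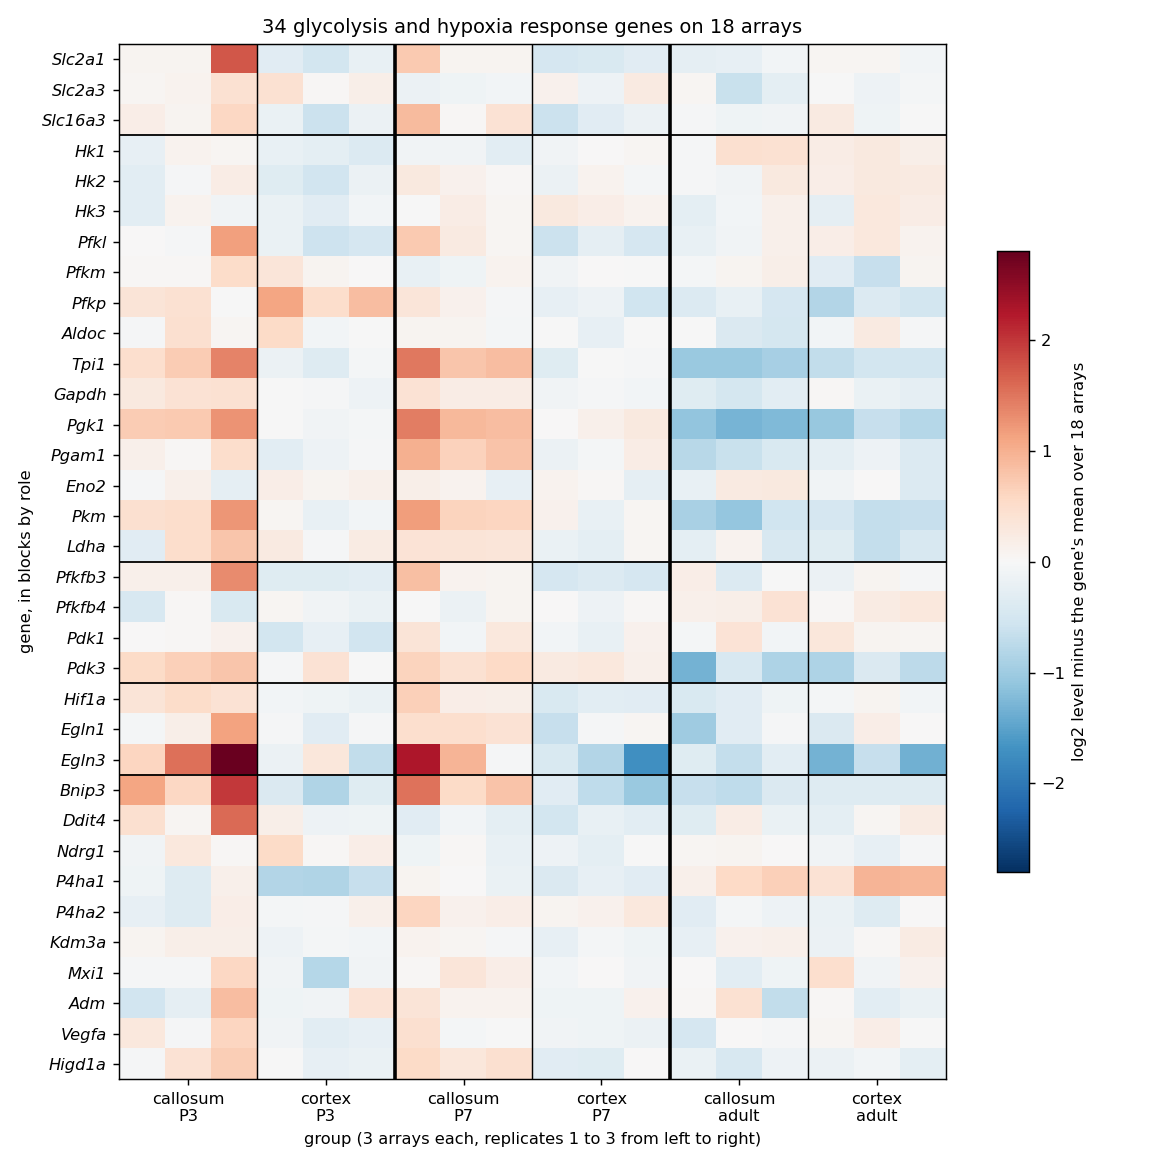
Level of each of the 34 measured genes on each of the 18 arrays, as the log2 level minus the mean of that gene over the 18 arrays (colour), with genes in rows by role and arrays in columns by age and region. Tpi1, Pgk1, Pkm and Bnip3 are red in both neonatal callosal groups, and callosal replicate 3 at P3 and callosal replicate 1 at P7 are the reddest columns.

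The question in the neonatal brain was whether callosal microglia differ from cortical microglia of the same age. At P3, 3 of the 34 genes passed the test, all higher in corpus callosum (Bnip3, Tpi1 and Pgk1), against 0.352% of all genes that were called higher. At P7, 5 of the 34 passed, all higher in corpus callosum (Bnip3, Tpi1, Pgk1, Pgam1 and Hif1a), against 0.446% of all genes. The callosal and cortical arrays did not overlap for 18 genes that were higher in corpus callosum and for Pfkp, which was lower, at P3, where 9.17% of all genes were separated upwards and 6.67% downwards. At P7 they did not overlap for 21 genes, all higher in corpus callosum, against 8.97% of all genes upwards and 7.76% downwards. The median difference over the 34 genes was 0.48 at P3 and 0.29 at P7, against 0.01 and 0.00 over all genes, and 27 and 29 of the 34 differences were above 0, where 51.9% and 50.8% of all genes were.

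These counts moved with single arrays. At P3, 2 genes passed without callosal replicate 3, 2 without cortical replicate 1 and none without cortical replicate 2; at P7 none passed without callosal replicate 1, and 1, 2 and 3 passed without cortical replicates 1, 2 and 3. Without callosal replicate 3 the median difference at P3 was 0.30, and without callosal replicate 1 the median at P7 was 0.27.

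**Figure D2:**
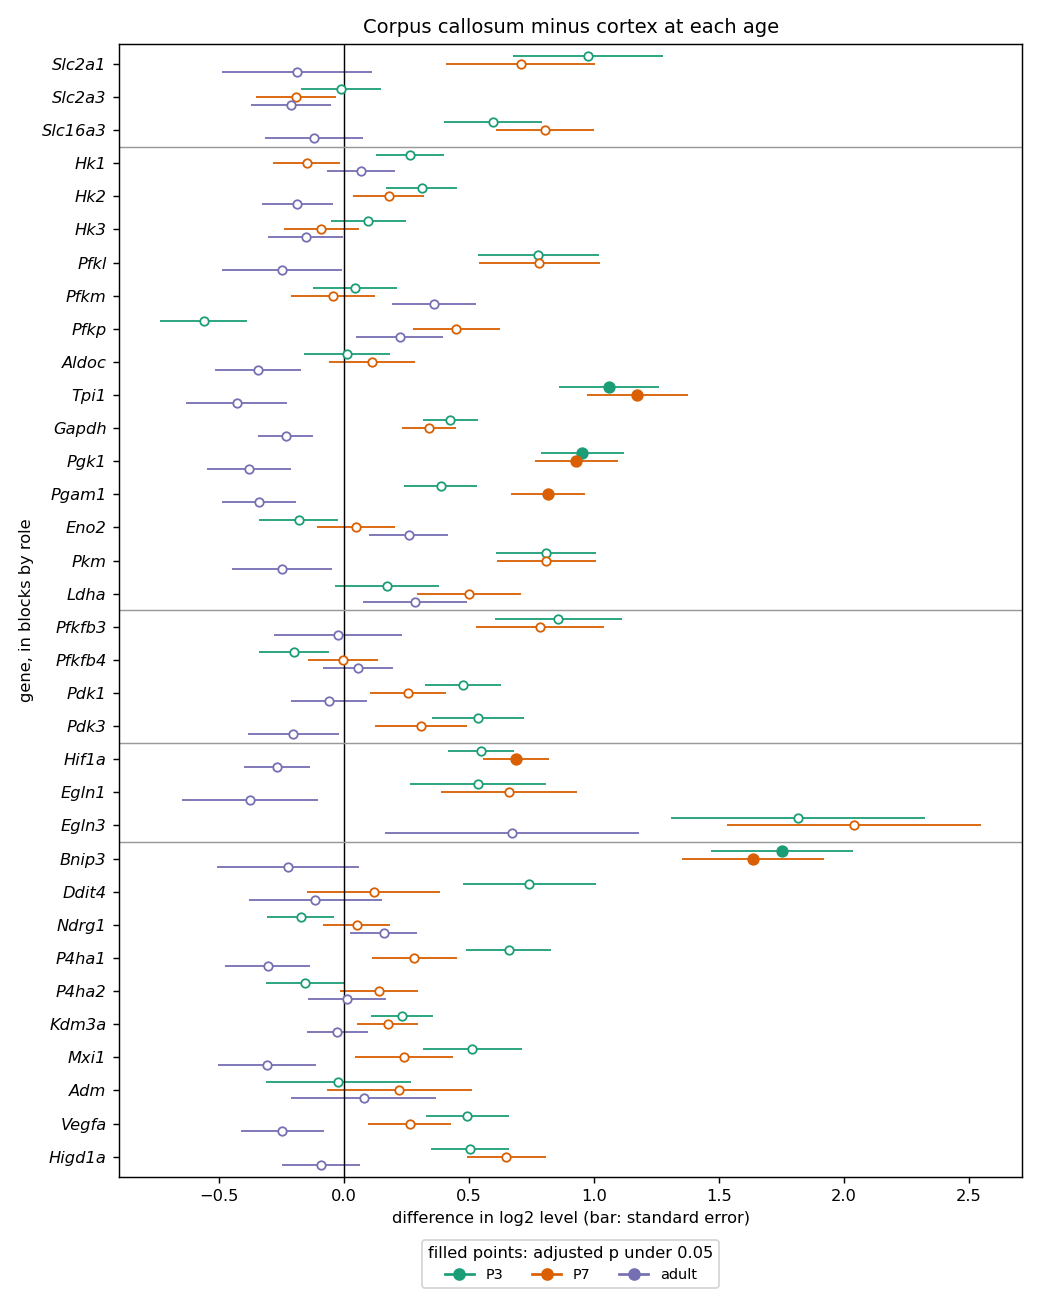
Difference in log2 level, corpus callosum minus cortex, for each of the 34 genes at P3, P7 and in the adult, with the standard error as a bar and filled points for genes that passed the test. Most neonatal points lie right of 0 and most adult points left of it, and Bnip3, Tpi1 and Pgk1 are filled at both neonatal ages.

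Among the carriers, none passed the test at either neonatal age. Slc2a1, the basal glucose carrier, had log2 levels of 8.67, 8.68 and 10.33 in corpus callosum at P3, against 8.27, 8.08 and 8.40 in cortex. The groups did not overlap, but replicate 3 of the callosum lay far above its partners, and the difference of 0.98 ± 0.30 had an adjusted p of 0.155. Slc16a3, which exports lactate, was at 7.53, 6.67 and 7.06 in corpus callosum at P7, against 6.04, 6.33 and 6.47 in cortex, a difference of 0.80 ± 0.20 (adjusted p = 0.102 by limma). Every callosal array lay above every cortical one for this gene at P7. Slc2a3, the high-affinity glucose carrier known best from neurons, showed differences of -0.01 at P3 and -0.19 at P7, and its level lay below that of the median gene, where signal was not told apart from background.

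Tpi1, which interconverts the triose phosphates, was 2.09-fold higher in callosal microglia at P3 and 2.26-fold higher at P7. Its log2 level was 8.63, 8.87 and 9.55 in corpus callosum at P3, against 7.99, 7.79 and 8.10 in cortex (difference 1.06 ± 0.20, adjusted p = 0.0222 by limma). At P7 it was 9.64, 8.94 and 9.03 in corpus callosum, against 7.82, 8.14 and 8.13 in cortex (difference 1.17 ± 0.20, adjusted p = 0.00733 by limma). No callosal array overlapped a cortical array at either age. The difference at P3 was 0.79 without callosal replicate 3 (adjusted p = 0.0575) and that at P7 was 0.96 without callosal replicate 1 (adjusted p = 0.0746).

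Pgk1, which makes the earliest ATP of the pathway, was 1.94-fold higher in callosal microglia at P3 and 1.91-fold higher at P7. At P3 its log2 level was 9.39, 9.40 and 9.92 in corpus callosum, against 8.66, 8.57 and 8.62 in cortex (difference 0.95 ± 0.17, adjusted p = 0.0119 by limma). At P7 it was 10.11, 9.58 and 9.54 in corpus callosum, against 8.68, 8.81 and 8.94 in cortex (difference 0.93 ± 0.17, adjusted p = 0.0109 by limma). The groups were again fully apart, and the cortical arrays at P3 lay within 0.1 of each other. Without callosal replicate 3 the P3 difference was 0.78 (adjusted p = 0.0429), and without callosal replicate 1 the P7 difference was 0.75 (adjusted p = 0.113). With the replicate number as a block Pgk1 did not pass at P7.

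Pgam1, the mutase that moves the phosphate of phosphoglycerate, passed the test at P7 only by its brighter probe set. That probe set read 9.56, 9.21 and 9.36 in corpus callosum at P7, against 8.39, 8.51 and 8.77 in cortex, a difference of 0.82 ± 0.15 (adjusted p = 0.0115 by limma). At P3 it read 8.72, 8.61 and 9.07 in corpus callosum, against 8.28, 8.43 and 8.53 in cortex, and the difference of 0.39 ± 0.15 did not pass (adjusted p = 0.261). The arrays did not overlap at either age, and without callosal replicate 1 the P7 difference was 0.72 (adjusted p = 0.126). The dimmer probe set read 5.96, 6.12 and 6.14 in corpus callosum at P7, against 5.52, 5.56 and 6.29 in cortex. Here the groups overlapped, and the difference of 0.28 ± 0.20 had an adjusted p of 0.996 over all probe sets. At P3 the dimmer probe set differed by -0.37 ± 0.20, the opposite direction.

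Several facts bear on which of these probe sets reports Pgam1. Pgam1 lies on mouse chromosome 19. In the order of probe set identifiers, all 20 neighbours of the brighter probe set are annotated to genes on chromosome 3, whereas all 19 located neighbours of the dimmer one lie on chromosome 19. Such a mismatch is rare: for 98.9% of the 23328 probe sets with a chromosome, their own chromosome was the commonest among 20 neighbours, and 4 of the 42 probe sets of the genes described here were at odds with it, the brighter one of Pgam1 and all 3 of Gapdh. RefSeq lists 2 pseudogenes named as copies of Pgam1 and 3 of Gapdh, as well as 7 of Tpi1 and 3 of Pgk1. Which transcripts the probe sets of these 4 genes detect was not tested, and the Pgam1 values below are those of the brighter probe set.

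**Figure D3:**
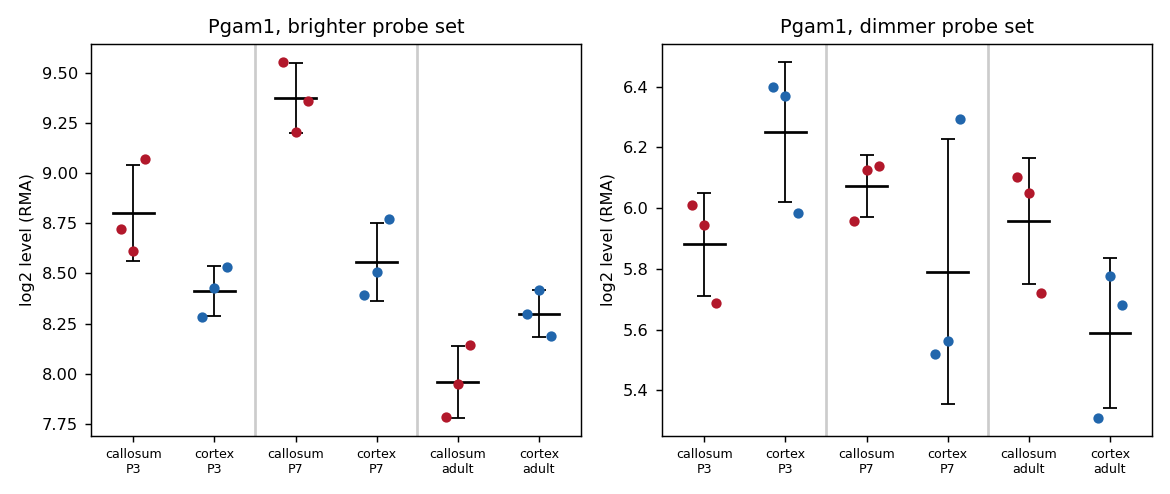
Log2 level of the brighter (left) and dimmer (right) probe set annotated to Pgam1 on each array, by region and age, with the mean and SD of 3 arrays as line and bar; the axes differ and do not start at 0. On the left the P7 callosal arrays lie from 9.21 to 9.56, above the cortical ones, and on the right the regions overlap at P7.

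Of the other glycolytic enzymes, none passed the test between the regions at P3 or P7. Pkm, the pyruvate kinase that closes the pathway, came close at P3, with 9.84, 9.88 and 10.62 in corpus callosum, against 9.43, 9.18 and 9.30 in cortex (difference 0.81 ± 0.20, adjusted p = 0.078 by limma). At P7 it stood at 10.56, 10.01 and 9.98 in corpus callosum, against 9.49, 9.18 and 9.45 in cortex, a difference of 0.81 ± 0.20 again (adjusted p = 0.112). Pkm was thus fully separated between the regions at both ages. Gapdh, whose enzyme oxidises glyceraldehyde phosphate, differed by 0.42 ± 0.11 at P3 and 0.34 ± 0.11 at P7, and Pfkl, the liver-type phosphofructokinase, by 0.78 ± 0.24 at both ages. Pfkp, the platelet-type phosphofructokinase, went the other way at P3 with a difference of -0.56 ± 0.17 (adjusted p = 0.159). The hexokinases Hk1, Hk2 and Hk3, which trap glucose in the cell, differed by -0.15 to 0.31 over both ages. Aldoc, Pfkm and Eno2, isoforms known best from brain, muscle and neurons, differed by -0.18 to 0.11, and Pfkm and Eno2 had levels below that of the median gene. Ldha, the lactate dehydrogenase subunit of glycolytic tissue, was also dim on this array and differed by 0.17 ± 0.21 at P3 and 0.50 ± 0.21 at P7.

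The regulators of flux did not pass either. Pfkfb3, which makes the activator of phosphofructokinase, was at 8.49, 7.74 and 7.71 in corpus callosum at P7, against 7.17, 7.25 and 7.17 in cortex. The arrays did not overlap, and the difference of 0.78 ± 0.26 had an adjusted p of 0.343; at P3 the difference was 0.86 ± 0.26. Pdk1 and Pdk3, kinases that shut pyruvate dehydrogenase, differed by 0.47 ± 0.15 and 0.54 ± 0.18 at P3 and by 0.25 ± 0.15 and 0.31 ± 0.18 at P7. Pfkfb4, a relative of Pfkfb3, differed by -0.20 ± 0.14 and 0.00 ± 0.14.

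In the oxygen-sensing group, Hif1a passed the test at P7, where it was 1.61-fold higher in callosal microglia. Its log2 level was 9.50, 9.02 and 8.99 in corpus callosum at P7, against 8.40, 8.54 and 8.50 in cortex (difference 0.69 ± 0.13, adjusted p = 0.0187 by limma). At P3 it was 9.18, 9.33 and 9.24 in corpus callosum, against 8.76, 8.70 and 8.65 in cortex (difference 0.55 ± 0.13, adjusted p = 0.071 by limma). The callosal arrays lay above all cortical ones at both ages, and at P3 the arrays of each region were tightly grouped. Without callosal replicate 1 the P7 difference was 0.52 (adjusted p = 0.162). With the replicate number as a block Hif1a did not pass at P7. A second, dimmer probe set of Hif1a averaged 7.08 ± 0.38 in corpus callosum and 6.57 ± 0.06 in cortex at P7. Its difference of 0.52 ± 0.19 had an adjusted p of 0.67 over all probe sets by limma. Under that correction the probe set used had an adjusted p of 0.05002.

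Egln3, the hydroxylase that is itself strongly induced by HIF in many cells, showed the widest gap between group means of the 34 genes at both ages but also the widest spread; it is described although it lies outside the rule for named genes, after its values were seen. Its log2 level was 6.01, 6.95 and 8.18 in corpus callosum at P3, against 5.25, 5.72 and 4.72 in cortex. At P7 it was 7.67, 6.36 and 5.38 in corpus callosum, against 4.99, 4.59 and 3.70 in cortex. The regions did not overlap at either age, but the callosal arrays spanned over 2 log2 units, and differences of 1.82 ± 0.51 and 2.04 ± 0.51 both had an adjusted p of 0.121. Egln1, the main oxygen-sensing hydroxylase, differed by 0.54 ± 0.27 at P3 and 0.66 ± 0.27 at P7.

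Bnip3, a mitochondrial protein that directs mitophagy and a classical HIF target, had the largest difference of the genes that passed, 3.37-fold at P3 and 3.11-fold at P7. Its log2 level was 7.94, 7.42 and 8.80 in corpus callosum at P3, against 6.43, 5.99 and 6.49 in cortex (difference 1.75 ± 0.28, adjusted p = 0.0074 by limma). At P7 it was 8.35, 7.36 and 7.63 in corpus callosum, against 6.52, 6.13 and 5.79 in cortex (difference 1.64 ± 0.28, adjusted p = 0.0081 by limma). Even the lowest callosal array lay over 0.8 above the highest cortical one at each age. Without callosal replicate 3 the P3 difference was 1.38 (adjusted p = 0.0236), and without callosal replicate 1 the P7 difference was 1.35 (adjusted p = 0.0891).

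None of the other hypoxia targets passed at P3 or P7. Higd1a, a mitochondrial protein induced in hypoxia, came closest at P7 with 7.41, 7.21 and 7.34 in corpus callosum, against 6.57, 6.55 and 6.89 in cortex (difference 0.65 ± 0.16, adjusted p = 0.102 by limma). P4ha1, a subunit of the collagen prolyl hydroxylase, differed by 0.66 ± 0.17 at P3 (adjusted p = 0.095) and 0.28 ± 0.17 at P7. Vegfa, the vascular growth factor, differed by 0.49 ± 0.17 and 0.26 ± 0.17, and Mxi1, an antagonist of Myc, by 0.51 ± 0.20 and 0.24 ± 0.20. Kdm3a, a histone demethylase, differed by only 0.23 ± 0.12 and 0.17 ± 0.12. Ddit4, an inhibitor of mTORC1, differed by 0.74 ± 0.27 at P3, where callosal replicate 3 stood at 6.86 and the other callosal arrays at 5.74 and 5.34, and by 0.12 ± 0.27 at P7. Adm, the vasodilator peptide, Ndrg1 and P4ha2 were dim and differed by -0.17 to 0.22.

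**Figure D4:**
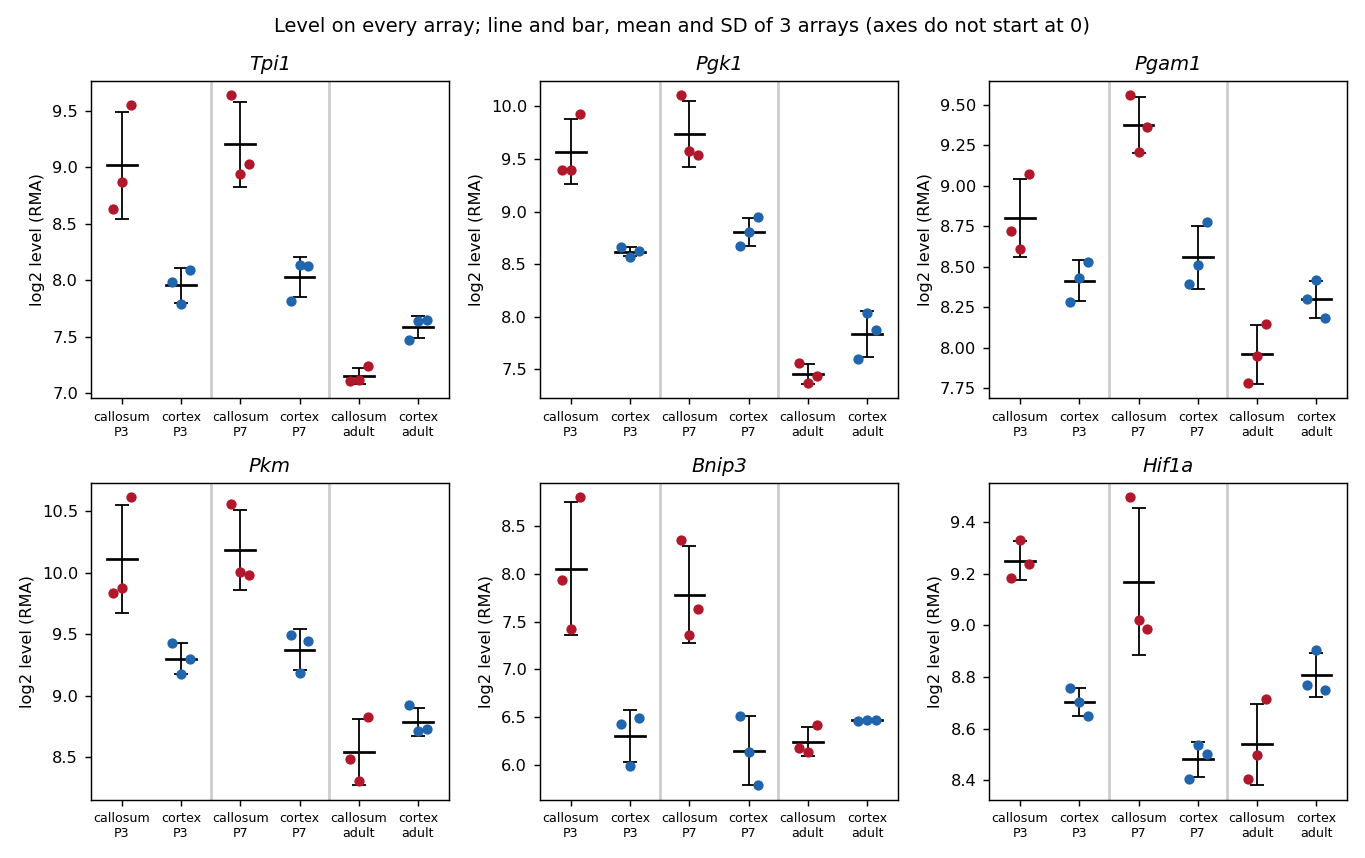
Log2 level of Tpi1, Pgk1, Pgam1 (brighter probe set), Pkm, Bnip3 and Hif1a on every array, with callosal points in red and cortical points in blue and the mean and SD of 3 arrays as line and bar; the axes do not start at 0. The callosal arrays lie above the cortical ones at P3 and P7 for all 6 genes, and in the adult the callosal mean is the lower one.

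Markers of other cells also differed between the regions at the neonatal ages. Border-associated macrophages, which the gate would not remove, were represented by 10 measured markers with a mean log2 level per array of 6.75 to 7.52 in corpus callosum at P3, against 6.41 to 6.83 in cortex. Folr2 and Ms4a7 of that list passed the test at P3 (differences 1.63 and 1.53), and Folr2 passed at P7 (1.95). Of all genes, 0.352% were called higher at P3 and 0.446% at P7. The list was not uniform: 9 of the 10 markers were higher and 1 lower in corpus callosum at P3. At P7, 6 were higher and 4 lower, where 50.8% of all genes were higher. Of 9 measured monocyte markers, 7 were higher and 2 lower in corpus callosum at P3, where 51.9% of all genes were higher. Lyz2 of these passed (0.90, and 0.88 with an adjusted p of 0.0822 by limma without callosal replicate 3). The mean of the monocyte list was 6.525 on callosal replicate 3 at P3. It was 5.795 and 5.806 on the other callosal arrays and 5.71 to 5.75 in cortex. At P7 the mean of the macrophage list was 6.93 to 7.16 in corpus callosum, against 6.67 to 6.98 in cortex. Neutrophils carry Gr1, which the gate selected against, yet their 10 markers were uneven between arrays. They averaged 6.68 on callosal replicate 3 at P3, against 5.42 and 5.67 on the other callosal arrays and at most 5.91 in cortex. On callosal replicate 1 at P7 they averaged 6.06, against at most 5.30 on the other callosal arrays and 5.33 in cortex. These arrays also held most of the highest levels above. None of the 10 markers passed between the regions at P3 or P7. Neuronal markers ran lower in corpus callosum at P3, with list means of 5.45 to 5.91 against 5.93 to 6.18 in cortex, and Gap43 and Meg3 passed (-1.27 and -1.32). The 11 microglial markers averaged 10.45 to 10.74 in corpus callosum at P7, against 10.86 to 10.94 in cortex. Of the 11, 8 were separated downwards, where 7.76% of all genes were, and none passed. The part of these cells in the differences of Bnip3, Tpi1, Pgk1, Pgam1 and Hif1a was not tested, and no detection limit was available to say which markers were absent.

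In the adult, none of the 34 genes passed the test between corpus callosum and cortex by limma, where 0.00451% of all genes did; at an unadjusted p under 0.05 there were 1 gene higher and 4 lower, where 8.51% of all genes passed that threshold. The direction of most differences was opposite to that in the neonate: 24 of the 34 lay below 0, where 51.8% of all genes lay above it, and the median difference was -0.17, against 0.01 over all genes. The adult regions did not overlap for 7 genes that were lower in corpus callosum and for Ndrg1, which was higher, against 6.07% and 6.73% of all genes. Tpi1 was at 7.11, 7.12 and 7.24 in adult corpus callosum, against 7.47, 7.64 and 7.65 in adult cortex (difference -0.43 ± 0.20, adjusted p = 0.581). Pgk1 was at 7.56, 7.37 and 7.44 in adult corpus callosum, against 7.60, 8.03 and 7.88 in adult cortex (difference -0.38 ± 0.17, adjusted p = 0.56). Both genes were thus separated, with the callosal arrays lower, by gaps that were small beside the neonatal ones. Pgam1, with the smallest adjusted p of the 34 (0.554), differed by -0.34 ± 0.15. Bnip3 was at 6.18, 6.13 and 6.42 in adult corpus callosum, against 6.46, 6.47 and 6.47 in adult cortex, and Hif1a at 8.40, 8.50 and 8.71 in adult corpus callosum, against 8.77, 8.90 and 8.75 in adult cortex. Egln3 had the largest positive difference, 0.67 ± 0.51, with overlapping arrays.

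Whether the regional difference itself changed with age was tested directly. Between P7 and the adult it was lower in the adult for 4 of the 34 genes, against 0.198% of all genes: Tpi1 (-1.60 ± 0.28, adjusted p = 0.0289), Pgk1 (-1.31 ± 0.24, 0.0294), Pgam1 (-1.16 ± 0.21, 0.0294) and Hif1a (-0.96 ± 0.18, 0.0459 by limma). Between P3 and the adult it was lower for Tpi1 (-1.49 ± 0.28, adjusted p = 0.0424) and Pgk1 (-1.33 ± 0.24, 0.0351), against 0.122% of all genes. In comparisons with P3, an array set effect that differed by region cannot be told apart from a change with age. Bnip3 changed by similar amounts, -1.86 ± 0.40 and -1.98 ± 0.40, with adjusted p-values of 0.0733 and 0.0532. None of the 34 genes passed between P3 and P7, and neither did any of the 22180 genes (0%, limma); at an unadjusted p under 0.05, 1 of the 34 was higher and 1 lower, against 5.68% of all genes. Without callosal replicate 1 at P7 none of the 4 genes passed between P7 and the adult (adjusted p of 0.0723 to 0.0993), and without callosal replicate 3 at P3 neither gene passed between P3 and the adult (0.0542 and 0.053). With each of 12 arrays left out in turn, none of the 34 genes passed in 7 cases between P7 and the adult and in 8 between P3 and the adult. With the replicate number as a block none of these genes passed, while Bnip3 did (adjusted p = 0.0129 between P7 and the adult and 0.0176 between P3 and the adult by limma).

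From P7 to the adult, the genes were compared within each region. In corpus callosum 11 of the 34 fell and 1 rose, against 10.7% and 6.56% of all genes, with a median difference of -0.41 where all genes had 0.05. In cortex 2 fell (Pgk1 and Pdk3) and 1 rose (P4ha1), against 6.15% and 4.05% of all genes, with a median of 0.09 where all genes had 0.03. The arrays of the ages did not overlap for 17 genes that were lower and 3 that were higher in adult corpus callosum, against 17% and 17.7% of all genes, and for 6 lower and 9 higher in adult cortex, against 13.7% of all genes in each direction.

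Glycolytic enzymes had the 3 largest falls in callosal microglia. Pgk1 was at 7.56, 7.37 and 7.44 in adult corpus callosum, against 10.11, 9.58 and 9.54 at P7, which is 4.87-fold lower (difference -2.28 ± 0.17, adjusted p = 2.42e-08 by limma). In cortex it was at 7.60, 8.03 and 7.88 in the adult, against 8.68, 8.81 and 8.94 at P7, 1.96-fold lower (difference -0.97 ± 0.17, adjusted p = 0.000552 by limma). The adult arrays lay below the P7 arrays in both regions, by more in corpus callosum, as tested above. Tpi1 was 4.13-fold lower in adult callosal microglia (-2.05 ± 0.20, adjusted p = 8.63e-07), whereas the difference in cortex was -0.44 ± 0.20 (adjusted p = 0.218). Pkm was 3.13-fold lower in adult callosal microglia (-1.64 ± 0.20, adjusted p = 9.43e-06), with -0.59 ± 0.20 in cortex (adjusted p = 0.0752). The brighter probe set of Pgam1 was 2.67-fold lower (-1.42 ± 0.15) and Gapdh 1.56-fold lower (-0.65 ± 0.11) in adult corpus callosum, with -0.26 ± 0.15 and -0.07 ± 0.11 in cortex. The dimmer probe set of Pgam1 differed by -0.12 ± 0.20 in corpus callosum. Hk1 was the gene that rose there, by 0.45 ± 0.14, with 6.11, 6.61 and 6.59 in the adult, against 6.05, 6.07 and 5.86 at P7; without callosal replicate 1 at P7 the difference was 0.48 (adjusted p = 0.0511).

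The other genes that passed in callosal microglia belonged to the remaining roles. Pdk3 fell in both regions, to 5.67, 6.55 and 6.14 in adult corpus callosum, against 7.61, 7.43 and 7.56 at P7 (-1.41 ± 0.18), and to 6.13, 6.59 and 6.26 in adult cortex, against 7.24, 7.30 and 7.15 at P7 (-0.90 ± 0.18). Its relative Pdk1 differed by -0.11 ± 0.15 and 0.20 ± 0.15 by the probe set used. A second, dimmer probe set of Pdk1 differed by 0.02 ± 0.13 in corpus callosum. In cortex the dimmer one was higher in the adult by 0.49 ± 0.13 (adjusted p = 0.0327 over all probe sets by limma). Bnip3 fell 2.91-fold in corpus callosum (-1.54 ± 0.28, adjusted p = 0.000694 by limma), against 0.32 ± 0.28 in cortex, and Hif1a fell by 0.63 on the log2 scale (SE 0.13), against a difference of 0.33 ± 0.13 in cortex. The dimmer probe set of Hif1a differed by -0.38 ± 0.19 in corpus callosum (adjusted p = 0.236 over all probe sets by limma). Egln1 (-0.90 ± 0.27), Higd1a (-0.69 ± 0.16) and P4ha2 (-0.47 ± 0.16) fell as well, and in cortex these 3 differed by 0.14, 0.05 and -0.34. Without callosal replicate 1 at P7 the difference was -0.89 for Egln1 (adjusted p = 0.0731) and -0.32 for P4ha2 (0.231). Egln3 differed by -1.49 ± 0.51 in corpus callosum, just short of the threshold (adjusted p = 0.0515).

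By the probe sets used, P4ha1 was the 1 gene of the 34 that rose in cortex. It was at 9.10, 9.66 and 9.64 in adult cortex, against 8.30, 8.47 and 8.39 at P7, 2.11-fold higher (1.08 ± 0.17, adjusted p = 0.000241 by limma). In corpus callosum it was at 8.84, 9.27 and 9.38 in the adult, against 8.79, 8.71 and 8.51 at P7, the largest positive difference of the 34 genes there (0.49 ± 0.17, adjusted p = 0.054). All adult arrays lay above the P7 arrays in both regions. The difference between regions in this change, -0.59 ± 0.24, did not pass the test (adjusted p = 0.578).

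**Figure D5:**
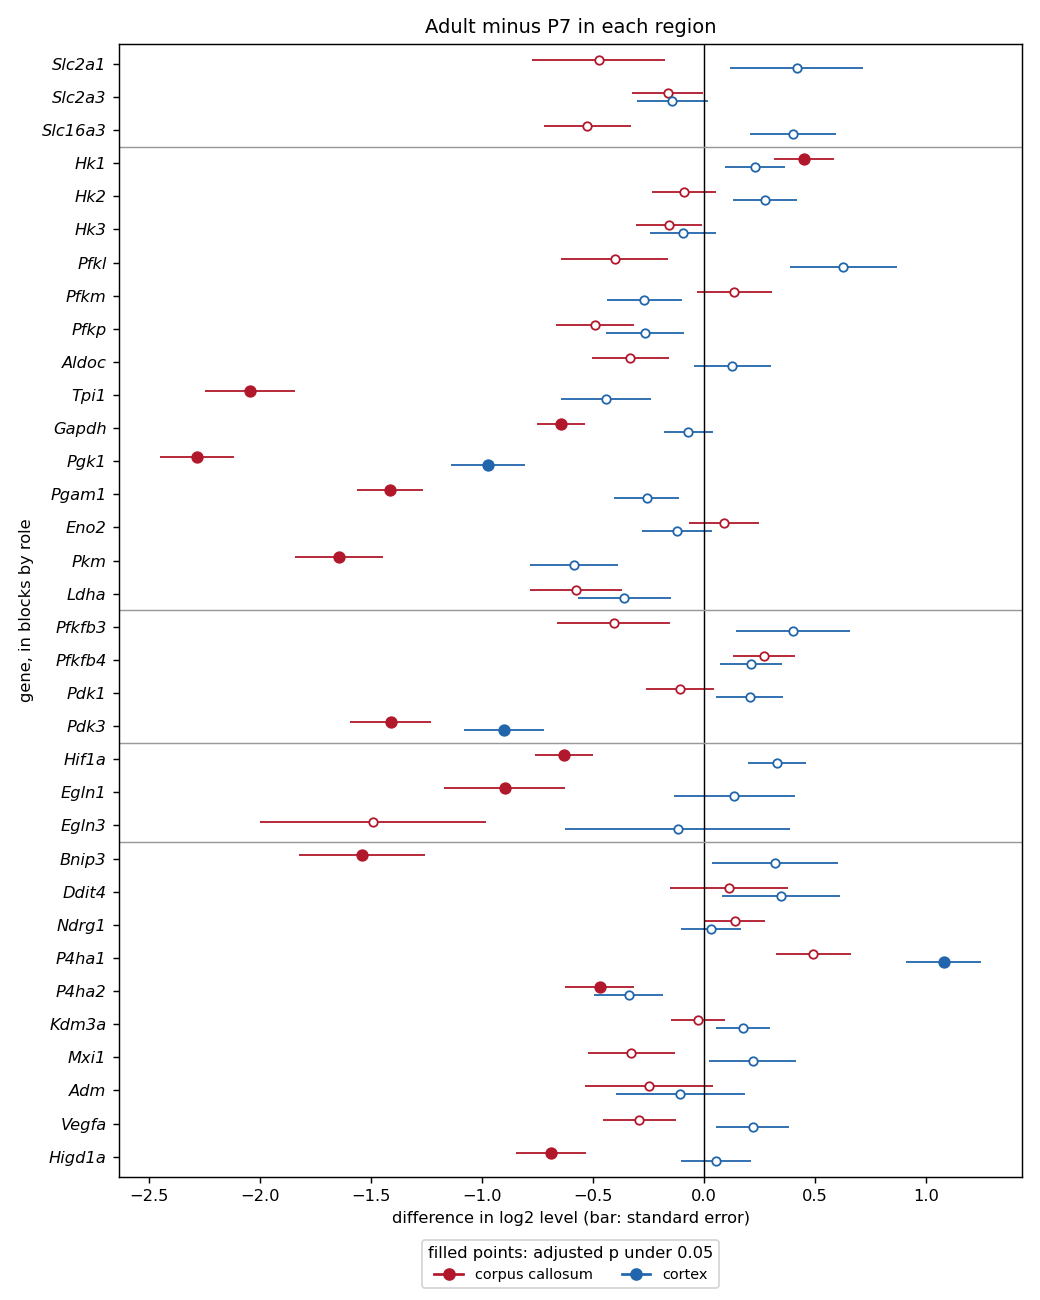
Difference in log2 level, adult minus P7, for each of the 34 genes in corpus callosum and in cortex, with the standard error as a bar and filled points for genes that passed the test. Pgk1, Tpi1, Pkm, Bnip3, Egln3, Pgam1 and Pdk3 lie furthest left in corpus callosum, and P4ha1 lies furthest right in cortex.

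Transcripts of the early response to cell isolation also differed between the ages. The 14 immediate early genes of that list had a mean log2 level per array of 7.94 to 8.25 in adult corpus callosum, against 7.01 to 7.23 at P7, and of 7.99 to 8.62 in adult cortex, against 6.83 to 7.13 at P7. In corpus callosum 9 of the 14 rose and 1 fell, against 6.56% and 10.7% of all genes, and in cortex 10 rose, against 4.05%. Of the 9, Junb, Egr1 and Dusp1 did not pass without callosal replicate 1 at P7 (adjusted p = 0.0838, 0.0599 and 0.0694 by limma). Border macrophage markers averaged 5.80 to 5.84 in adult corpus callosum, against 6.93 to 7.16 at P7, with 6 of 10 lower where 10.7% of all genes fell. Of these 6, Ms4a7 did not pass without callosal replicate 1 at P7 (adjusted p = 0.0722 by limma). In adult cortex they averaged 5.66 to 5.79, against 6.67 to 6.98 at P7, with 4 of 10 lower where 6.15% of all genes fell. Microglial markers averaged 11.10 to 11.35 in adult corpus callosum, against 10.45 to 10.74 at P7, with 8 of 11 higher where 6.56% of all genes rose (4 of these 8 passed without callosal replicate 1 at P7), and 11.13 to 11.45 in adult cortex, against 10.86 to 10.94 at P7, with 5 of 11 higher where 4.05% did. The part of these in the changes of Pgk1, Tpi1, Pkm or Bnip3 was not tested.

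Between P3 and P7 the levels of the set moved little. Pfkp was the only one of the 34 to pass, in cortex, where it fell to 5.87, 5.95 and 5.54 at P7, against 7.20, 6.59 and 6.97 at P3 (-1.13 ± 0.17, 2.19-fold lower, adjusted p = 0.00309 by limma), where 0.604% of all genes fell. In corpus callosum the same gene differed by -0.12 ± 0.17, and none of the 34 passed by limma, against 0.739% of all genes; at an unadjusted p under 0.05, 2 were higher and 1 lower, against 14.2% of all genes. The difference between the regions in the change of Pfkp, 1.01 ± 0.25, did not pass (adjusted p = 0.868). Neuronal markers moved between the same groups, with list means of 5.55 to 5.60 in cortex at P7, against 5.93 to 6.18 at P3. In corpus callosum they were 5.42 to 5.49 at P7, against 5.45 to 5.91 at P3. Of the 14 markers, 4 were lower in cortex and 2 in corpus callosum (Map2 and Dcx), where 0.604% and 0.415% of all genes were. Neither Map2 nor Dcx passed without callosal replicate 1 at P7 (adjusted p = 0.0636 and 0.0879 by limma). The part of neuronal transcripts in the levels of Pfkp, whose callosal arrays also lay below the cortical ones at P3, was not tested. Median differences over the 34 genes were -0.04 in cortex and -0.01 in corpus callosum.

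The rest of the pathway was followed through lists of further genes. Of 36 further genes listed for glycolysis and pyruvate use, 30 were measured, and 0 passed between the regions at any age by limma, and their median differences were 0.08 at P3, 0.04 at P7 and -0.06 in the adult. At an unadjusted p under 0.05 there were 7 of the 30 at P3, 2 at P7 and 3 in the adult, against 12.8%, 6.88% and 8.51% of all genes. From P7 to the adult, 3 of the 30 rose and 5 fell in corpus callosum, against 6.56% and 10.7% of all genes. Slc2a5, a fructose carrier that marks microglia, rose by 1.37 ± 0.16 in corpus callosum and by 0.92 ± 0.16 in cortex, and Eno3, the muscle enolase, by 0.83 ± 0.16 and 0.67 ± 0.16. Ldhc, a testis-type lactate dehydrogenase subunit, rose by 0.34 ± 0.10 in corpus callosum (0.31 with an adjusted p of 0.0785 without callosal replicate 1 at P7). Slc16a1, the lactate carrier MCT1, fell by 1.12 on the log2 scale in callosal microglia, and so did Pdha1 (-0.86 ± 0.17), Dld (-0.61 ± 0.13) and Dlat (-0.48, added after its values were seen; -0.45 with an adjusted p of 0.0863 without that array), all components of the pyruvate dehydrogenase complex, and Gpd2 (-0.56 ± 0.16), which shuttles reducing equivalents into mitochondria. In cortex 4 rose and 1 fell, against 4.05% and 6.15% of all genes; Ldhb, the heart-type lactate dehydrogenase subunit, rose by 0.73 ± 0.12 and Pdk2 by 0.48 ± 0.14, and Adpgk, an ADP-dependent glucokinase, fell by 0.62 on the log2 scale.

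Of 10 genes of the pentose phosphate pathway 8 were measured. In this pathway, which branches off glycolysis to make ribose and NADPH, 0 passed between the regions at any age by limma. At an unadjusted p under 0.05 there was 1 at each age, against 12.8% of all genes at P3, 6.88% at P7 and 8.51% in the adult. From P7 to the adult 4 fell in corpus callosum and 3 in cortex, against 10.7% and 6.15% of all genes. Prps2 and Prps1, which turn ribose phosphate into the precursor of nucleotides, fell by 1.34 and 0.83 in corpus callosum and by 0.79 and 0.92 in cortex. Pgls, the lactonase, fell by 0.56 and 0.48, and Taldo1, the transaldolase, fell by 0.53 in corpus callosum. With the mean of all its probe sets Pgls passed in neither region (adjusted p = 0.266 in corpus callosum and 0.23 in cortex by limma). After renewed quantile normalization Taldo1 did not pass (adjusted p = 0.075 by limma).

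Of 56 further genes of the hypoxia response, 52 were measured; 2 were higher in callosal microglia at P3 and 5 at P7, against 0.352% and 0.446% of all genes, and 0 were lower at either age. Anxa2, a membrane-binding annexin, was at 7.71, 7.55 and 8.23 in corpus callosum at P3, against 6.30, 6.29 and 6.28 in cortex (difference 1.54 ± 0.19, adjusted p = 0.00098 by limma). At P7 it was at 8.28, 7.57 and 7.42 in corpus callosum, against 5.76, 5.67 and 5.66 in cortex (difference 2.06 ± 0.19, adjusted p = 1.17e-05 by limma). The gap at P7 was larger than for any of the 34 genes that passed, whereas at P3 Bnip3 differed by more (1.75). For Anxa2 the regions were far apart at both ages. Hmox1, the inducible heme oxygenase, passed at P3 (1.07 ± 0.21), but not without callosal replicate 3 (0.87, adjusted p = 0.0866). At P7 Rragd, a GTPase of mTORC1 signalling (1.22 ± 0.22), Mif, a cytokine (0.88 ± 0.13), Fam162a, a mitochondrial protein (0.79 ± 0.15), and the chemokine receptor Cxcr4 (0.75, added after its values were seen) passed as well. Without callosal replicate 1, Anxa2 and Mif passed at P7, whereas Rragd (1.04, adjusted p = 0.134), Fam162a (0.65, 0.222) and Cxcr4 (0.78, 0.208) did not. In the adult none of the 52 passed between the regions by limma, and 2 had an unadjusted p under 0.05, against 8.51% of all genes. The regional difference of Anxa2 was lower in the adult than at P7 by -1.61 (adjusted p = 0.0154) and that of Mif by -0.92 (adjusted p = 0.0466, and 0.16 without callosal replicate 1 at P7).

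From P7 to the adult, 12 of these 52 genes fell and 3 rose in corpus callosum, against 10.7% and 6.56% of all genes, and 6 fell and 5 rose in cortex, against 6.15% and 4.05%. In callosal microglia Anxa2 fell 5.25-fold, Mif 3.23-fold, Hmox1 3.21-fold and Rragd 2.52-fold. Anxa2 and Mif fell in cortex too, by 0.78 and 0.76 on the log2 scale, together with Pam, which amidates peptides, and Tfrc, the transferrin receptor (-0.76 and -0.75). Ccng2, a cyclin of the G family, Bhlhe41, a transcriptional repressor of the clock, and Narf rose in both regions, by 1.01, 0.62 and 0.61 in corpus callosum and by 0.62, 0.61 and 0.85 in cortex. Vhl, which carries hydroxylated HIF to degradation, rose by 0.59 ± 0.17 in cortex.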

How the data were processed

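The authors deposited log2 expression values, 1 per probe set and array, made with RMA per the submitters' processing notes; the RMA version and settings and the array annotation were not given in the sources used here. Base 2 was assumed, since the values ran from 0.87 to 13.78. RMA removes differences in total RNA between arrays and compresses large changes, and signal was not told apart from background.

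Of 41345 probe sets, 23521 had 1 gene symbol, 1814 several and 16010 none in GEO's platform annotation; 23328 were matched to RefSeq (GRCm38.p6) by gene ID, and 0 symbols changed. The brightest probe set stood for each of 22180 genes. All 18 arrays, grouped by the labels, entered 1 limma 3.58.1 fit (R 4.3.3) with a mean per group (12 residual degrees of freedom, eBayes, two-sided tests, Benjamini-Hochberg over all genes, called at an adjusted p under 0.05), checked on simulated data. The 10 comparisons set the regions against each other at every age, the adult against P7 and P7 against P3 within a region, and the regional differences of the ages against each other. An exact permutation test of 3 arrays against 3 cannot go below p = 0.1, and 3 arrays per group limit the precision.

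The genes, lists and comparisons were chosen with earlier results of these data known. Named were genes that passed in any comparison, the 2 nearest misses of each regional comparison, the largest differences between P7 and adult, and up to 4 genes per direction of the further lists.

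Promoters came from RefSeq and were searched on both strands for the 2 HIF cores and their palindrome; Slc2a3, Ndrg1 and Bnip3l had no entry. Alternatives were a renewed quantile normalization, an intensity trend in eBayes, only genes above the median level, the mean of all probe sets of a gene, only the arrays compared, each array left out, and the replicate block; Pgam1 by its dimmer probe set with Gapdh left out was added after seeing the data.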

Additional observations from a re-analysis of the deposited data

Results flagged for a closer look

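The regional difference, corpus callosum minus cortex, itself differed between the ages for 4 genes. Between P7 and the adult its change was -1.60 for Tpi1 (adjusted p = 0.0289), -1.31 for Pgk1 (0.0294), -1.16 for the brighter probe set of Pgam1 (0.0294) and -0.96 for Hif1a (0.0459, all by limma). Between P3 and the adult the change was -1.49 for Tpi1 (adjusted p = 0.0424) and -1.33 for Pgk1 (0.0351). There an array set effect that differed by region cannot be told apart from age. All 3 callosal arrays lay above the cortical arrays at P7 for these 4 genes, and in the adult all 3 lay below them for Tpi1, Pgk1, Pgam1 and Hif1a. By the dimmer probe set of Pgam1 the change between P7 and the adult was 0.086. By the dimmer probe set of Hif1a it was -0.55 ± 0.27 (adjusted p = 0.748 over all probe sets by limma). Under that correction the Hif1a probe set used had an adjusted p of 0.13. With the replicate number as a block none of these changes passed.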

How the results depend on the processing

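The counts of the 34 genes that passed depended on the setting in most comparisons between regions. At P3 the count of 3 became 6 with an intensity trend, 7 among genes above the median level only and 0 with only the arrays compared. At P7 the count of 5 became 8 among genes above the median level, 3 with the mean of all probe sets and 0 with only the arrays compared. With the replicate block it became 3 (Tpi1, Pgam1 and Bnip3), and Pgk1 and Hif1a no longer passed. From P7 to the adult in cortex the count of 3 became 6 with only the arrays compared. Between P3 and P7 in corpus callosum, 1 gene in place of 0 passed with an intensity trend or among genes above the median level. For the change of the regional difference between P7 and the adult, 4 became 2 with the mean of all probe sets and, with the replicate block, 1 that was none of the 4 (Bnip3). For that between P3 and the adult, 2 became 5 with an intensity trend, 6 among genes above the median level, 0 after renewed quantile normalization, 0 with only the arrays compared and, with the replicate block, 1 that was neither Tpi1 nor Pgk1 (Bnip3 again). With 1 array left out the counts ran from 0 to 4 at P3, 0 to 6 at P7, 9 to 12 from P7 to the adult in corpus callosum, 0 to 1 between P3 and P7 in corpus callosum, and 0 to 4 for the change of the regional difference between P7 and the adult and likewise between P3 and the adult. The mean of all probe sets gave Pgam1 an adult regional difference of 0.013 in place of -0.34, and its dimmer probe set gave 0.37, and 0.086 for the change of the regional difference between P7 and the adult. Of 1031 recomputed values of named genes, 848 kept direction and side of the threshold, 168 kept direction but no longer passed, 12 passed anew and 3 reversed. From P7 to the adult in corpus callosum, Tpi1, Pgk1, Pkm, Pdk3, Bnip3, Gapdh, Hif1a and Higd1a passed under each alternative run for them. Fewer arrays leave fewer degrees of freedom; other causes were not tested. Replicate numbers recur across groups, but the labels do not say that they pair samples, and the main fit took the arrays as unpaired. The deviations of same-numbered callosal and cortical arrays correlated above 0 in all 9 pairs (0.016 to 0.3) and above 0.1 in 4. As a hint of pairing from the data, 8 of 9 callosal and 7 of 9 cortical arrays correlated best with their own number. Whether the numbers pair samples was not settled. The replicate block moved no other count by over 1.5 times. Dim genes such as Egln3, Ldha and Adm have uncertain differences.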
